A study of Mus musculus with 6 samples.

Results

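The genes described here are 10 genes of pancreatic-type digestive secretion, measured in the lining of the mouse stomach: Clps, Amy2a5, Rnase1, Pnliprp1, Zg16, Cela1, Try4, Cela2a, Cpa1 and Cpb1. They were taken by gene symbol, from the platform annotation or from the current symbol of the same Entrez gene, and they were selected on their levels on these very arrays. All 10 were found, with 15 of the 45281 probes and among 19057 named genes. The study asked what loss of Lasp1, an actin-binding protein abundant in acid-secreting cells, does to mRNA levels in the stomach lining. Total RNA came from fundic gastric mucosa of C57Bl/6Ncr mice, 3 months old, in 3 wild type samples and 3 Lasp1 knockout samples, each labelled with biotin and read on 1 Illumina bead array. The labels name no other allele or treatment, and they say neither how the knockout was made nor whether each array held a separate mouse, so a p-value here measures only the spread between these samples.

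Acinar cells of the pancreas make digestive enzymes, store them in zymogen granules and release them into the duct. The enzymes that cut proteins are made as inactive precursors, trypsin switches the others on in the gut, and lipases need the small cofactor colipase to work in the presence of bile salts. The fundic mucosa has an exocrine cell of its own, the chief cell, which secretes pepsinogen and, in rodents, gastric intrinsic factor. Transcription of acinar genes is known to depend on PTF1, a complex of Ptf1a and Rbpjl that binds an E-box together with a TTTCCC box.

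The members fell into 2 classes, which the choice of genes already had in view. A gene counted as bright on all 6 arrays if its brightest probe read at least 5 times the array median on each of them, and otherwise as high on wild type replicate 3 if it read there at least 10-fold over both other wild type arrays. By this rule 7 genes were bright on all 6 arrays (Clps, Amy2a5, Rnase1, Pnliprp1, Zg16, Cela1 and Try4) and 3 were high on wild type replicate 3 (Cela2a, Cpa1 and Cpb1). Nearest to the limit, Try4 read 6941 on its lowest array just inside it, and Cela2a 1288 just outside it, on a scale where every array has a median of 1000. At a limit of 10 times the median 5 genes were bright, since Zg16 (lowest value 9651) and Try4 then fell short. In the deposited values every one of the 10 was highest on wild type replicate 3, though for Clps the log2 difference of that array from the median of the others, 0.15, was 0 after quantile normalization.

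The 250 bases upstream of the start of 4 members are shown as a description. They are credited to RefSeq on build GRCm38.p6 and written 5′ to 3′ on the strand of the gene. Capitals mark the E-box form CACCTG, which reads CAGGTG on the opposite strand. They also mark the box TTTCCC, which reads GGGAAA on the opposite strand. Cela1 and Cela2a are the pair of elastases that fell into different classes, and Try4 and Cpa1 hold 1 of the motifs each. They lie at chr15:100687921-100688170 on the minus strand for Cela1, chr4:141826006-141826255 on the minus strand for Cela2a, chr6:41302022-41302271 on the plus strand for Try4 and chr6:30638968-30639217 on the plus strand for Cpa1.
Cela1: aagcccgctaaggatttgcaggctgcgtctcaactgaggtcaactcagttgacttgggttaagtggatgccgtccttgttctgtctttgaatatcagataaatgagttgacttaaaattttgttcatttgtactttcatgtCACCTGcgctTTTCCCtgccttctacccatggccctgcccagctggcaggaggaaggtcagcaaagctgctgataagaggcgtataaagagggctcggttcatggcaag
Cela2a: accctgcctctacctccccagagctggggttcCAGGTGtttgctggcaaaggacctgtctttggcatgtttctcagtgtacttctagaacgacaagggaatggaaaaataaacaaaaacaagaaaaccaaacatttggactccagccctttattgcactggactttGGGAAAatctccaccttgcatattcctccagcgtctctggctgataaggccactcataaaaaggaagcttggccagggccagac
Try4: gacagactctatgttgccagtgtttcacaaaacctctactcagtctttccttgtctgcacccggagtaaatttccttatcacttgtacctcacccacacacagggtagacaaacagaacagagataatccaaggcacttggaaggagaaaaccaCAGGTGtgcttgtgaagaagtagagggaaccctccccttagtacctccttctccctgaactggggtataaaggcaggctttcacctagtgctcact
Cpa1: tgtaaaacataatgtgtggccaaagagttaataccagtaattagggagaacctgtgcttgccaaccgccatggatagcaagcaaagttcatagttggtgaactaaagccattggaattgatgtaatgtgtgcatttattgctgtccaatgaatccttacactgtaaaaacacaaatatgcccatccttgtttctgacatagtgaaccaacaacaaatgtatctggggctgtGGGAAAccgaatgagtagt

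In the Cela1 stretch CACCTG began 109 bases and TTTCCC 99 bases before the start, with 4 bases between them. In that of Cela2a the reverse forms began 218 and 84 bases before the start and lay 128 bases apart. The Try4 stretch held CAGGTG, beginning 96 bases before the start, and that of Cpa1 GGGAAA, 19 bases before it. The stretch of Cpb1 also held CAGGTG, 94 bases before the start. Of the 10 members, 8 were in the promoter table, and CACCTG on either strand occurred in 4 of these 8, in 60.5% of 38 upstream stretches of other pancreatic acinar genes and in 17.2% of all 32851. TTTCCC occurred in 37.5%, 26.3% and 21.9% of these, and both together in 25.0%, 15.8% and 3.61%. The general E-box CANNTG, of which all forms searched are cases, was in 87.5% of the members, 84.2% of the other acinar stretches and 66.2% of all. The form CAGCTG was in 25.0%, 10.5% and 13.0% in the same order, where 25.0% is 2 of 8 members. The form CATATG was in 0 of 8, in 2.63% and in 3.46%. A match describes these letters and is not a bound site, and none of these shares was tested.

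**Figure D1:**
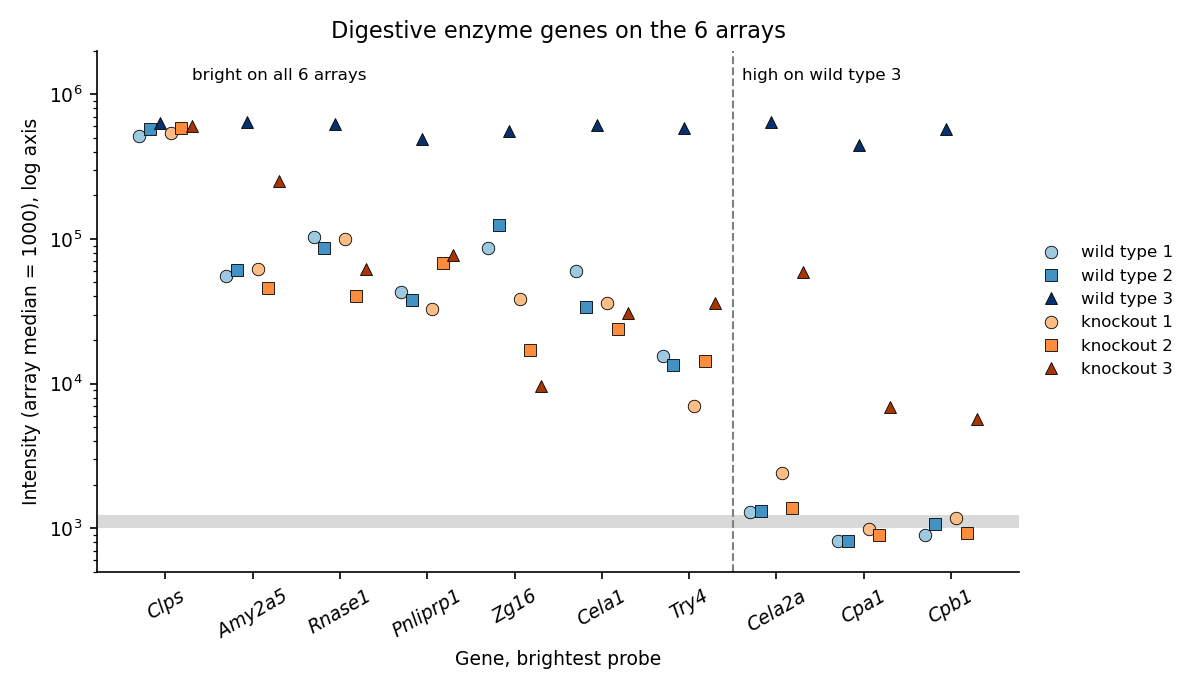
Intensity of the brightest probe of each of the 10 genes (x axis) on each of the 6 arrays (y axis, log scale, array median 1000). Each point is 1 array, blue for wild type and orange for knockout, and the grey band spans the brightest Y-linked probe of each array, 1020 to 1212, taken as background. The dark blue triangles of wild type replicate 3 are the highest point of every gene in these deposited values, while Cpa1 lies below the band on 4 of the 6 arrays.

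Across all probes the arrays differed in ways that bear on every value below. Wild type replicate 3 had Pearson correlations of 0.959 to 0.980 across probes with the other arrays. Those among the other arrays ran from 0.977 to 0.993, so the ranges overlapped. The share of probes above the brightest of 13 Y-linked probes ran from 35.8% on wild type replicate 3 to 48.5% on knockout replicate 1. That probe is taken as the background of each array. This assumes that Y-linked genes were not expressed, and the sex of the mice is not stated here. Lasp1 was lower on every knockout array on its brightest probe, at 88521 to 111002 against 177315 to 275068, and it is not known here whether that probe lies in the deleted stretch. Background taken in this way was near 1000, and no array had a value lower than 542. The sources used here name no background step. If background remained in the values, the folds of dim probes are understated.

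The lipid-digesting members were led by Clps, which encodes colipase. In the order of the replicate numbers, its probe ILMN_1246265 read 513831, 572737 and 635559 in wild type mucosa and 536336, 586050 and 603537 in knockout mucosa. The second probe, ILMN_2722659, read 511813, 547773 and 596690, and 546515, 567026 and 594766. All 6 arrays were thus high and the groups overlapped fully, with log2 differences, knockout minus wild type, of 0.0068 (SE 0.13) and 0.05 (SE 0.12). Both probes sat at the top of what the arrays recorded, at 93.9% to 99.4% and 88.1% to 99.99% of the brightest probe of the same array.

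The deposited order of the 6 arrays for Clps was the exact reverse of the order of the array medians before scaling. Those medians ran from 50.75 on wild type replicate 3 to 64.0 on wild type replicate 1, and without the scaling ILMN_1246265 read 31595 to 33505, highest on wild type replicate 2, a range of 1.06-fold against 1.24-fold in the deposited values. Whether the Clps probes were saturated is not recorded in the values used here.

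Pnliprp1, a pancreatic lipase-related protein, read 42677, 38061 and 489715 in wild type and 33015, 67763 and 77444 in knockout mucosa. Wild type replicate 3 stood 11.5-fold above the median of the 5 other arrays, and the remaining wild type arrays lay inside the knockout range. The log2 difference was -0.73 (SE 0.97), and 0.47 without wild type replicate 3.

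Amylase, which cuts starch, was high on a second array as well. The brightest Amy2a5 probe, ILMN_2668124, read 55045, 61236 and 644516 in wild type and 61713, 45852 and 251216 in knockout mucosa. The first 2 replicates of each genotype lay within 1.35-fold of each other, knockout replicate 3 was 4.07-fold over the highest of those 4 arrays and wild type replicate 3 was 2.57-fold higher again. The log2 difference was -0.54 (SE 1.06), and 0.62 without wild type replicate 3.

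The other Amy2a5 probes placed the gene differently. ILMN_2874291 read 3938, 4174 and 483334, and 3571, 3652 and 19269, so that wild type replicate 3 was 123-fold over the median of the others where the brightest probe gave 10.5-fold. ILMN_2933478 was above background on wild type replicate 3 alone, at 61530 against 801 to 961 elsewhere. Classed by themselves, both dimmer probes fell with Cela2a, Cpa1 and Cpb1. Mouse amylase genes are near-identical copies and the probe sequences are not used here, so which copy each probe reads is uncertain.

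**Figure D2:**
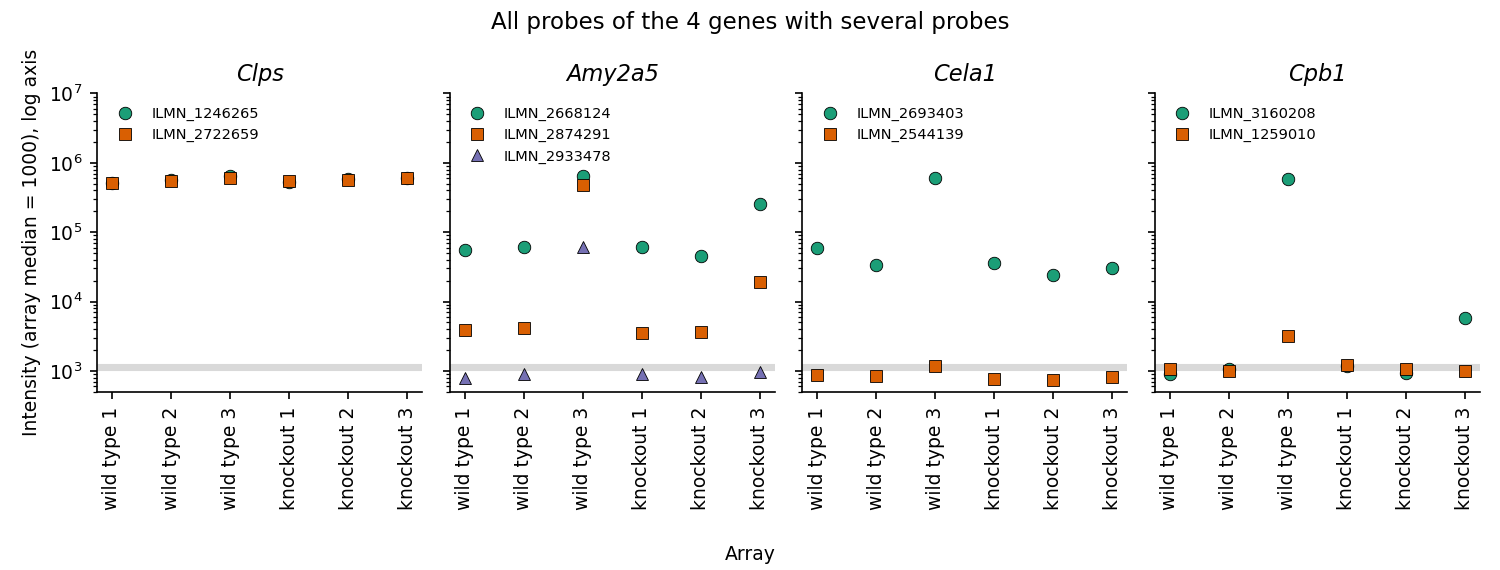
Every probe of the 4 genes with several probes, on the 6 arrays (x axis), as intensity on a log scale (y axis, array median 1000), 1 point per array and probe. The grey band is the background range of 1020 to 1212. The probes of Clps coincide, those of Amy2a5 spread over 3 levels, and ILMN_2544139 of Cela1 stays in or below the band on all 6 arrays.

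Rnase1, a secreted ribonuclease, read 102960, 86402 and 619319 in wild type and 100423, 40159 and 61819 in knockout mucosa. The array of wild type replicate 3 was 7.17-fold over the median of the others, and knockout replicate 3, at 0.60 of the highest of the 4 remaining arrays, was within the range of the others. Its log2 difference was -1.49 (SE 0.76), and -0.58 without wild type replicate 3.

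Zg16, a lectin of the zymogen granule membrane that is also made by goblet cells, was the only member whose groups did not overlap. It read 86169, 124704 and 560890 in wild type and 38479, 17105 and 9651 in knockout mucosa. Among all tested probes 231 had every knockout array below every wild type array (1.02%), and since this contrast was in view when the members were picked, nothing is read from it. Knockout replicate 3, where amylase and Cela2a were high, was the lowest of the 6 arrays for Zg16. Its log2 difference was -3.30 (SE 0.78) over all arrays, -2.48 (SE 0.53) without wild type replicate 3 and -2.01 without both replicates numbered 3.

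The serine proteases came in both classes. Cela1, an elastase, read 59570, 34006 and 612286 in wild type and 36302, 23883 and 30693 in knockout mucosa on ILMN_2693403. Its wild type replicate 3 stood 18.0-fold over the median of the others, and the 5 others lay together, with knockout replicate 3 inside their range. The log2 difference was -1.85 (SE 0.99), and -0.59 without wild type replicate 3. A further Cela1 probe, ILMN_2544139, was above background on no array, at 732 to 1166, and was the only one of the 15 probes that did not pass the filter on low values.

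Try4, one of the mouse trypsinogens, read 15516, 13515 and 581623 in wild type and 6941, 14398 and 36204 in knockout mucosa. Here knockout replicate 3 was high as well, at 2.33-fold over the highest of the 4 remaining arrays, and wild type replicate 3 was 40.4-fold over the median of the 5 others. The log2 difference of -1.69 (SE 1.46) became 0.08 without wild type replicate 3. Try4 lies in a row of trypsin genes, with 2210010C04Rik and Try5 as neighbours in the RefSeq gene table, and how far its probe tells these similar genes apart is uncertain.

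Cela2a, another pancreatic elastase, read 1288, 1311 and 647587 in wild type and 2400, 1368 and 58913 in knockout mucosa. Among the 10 genes it ran over the widest range of intensities after Cpa1 and Cpb1: wild type replicate 3 was 473-fold over the median of the 5 others, and knockout replicate 3 was 24.5-fold over the highest of the remaining 4. The log2 difference was -0.83 (SE 2.62) and turned to 2.15 without wild type replicate 3, since knockout replicate 3 was then the highest array.

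The carboxypeptidases, which trim amino acids from the end of peptides, ordered the arrays in the same way at the top. Cpa1 read 814, 821 and 449183 in wild type and 993, 896 and 6865 in knockout mucosa, above background on 2 arrays. Cpb1 read 902, 1074 and 579832, and 1178, 932 and 5731 on ILMN_3160208, above background on 3 arrays. For both genes wild type replicate 3 was first (502-fold and 540-fold over the median of the others) and knockout replicate 3 came next (6.92-fold and 4.87-fold over the highest of the 4 remaining arrays). Their log2 differences were -1.87 and -2.16 (SE 2.42 for each), and 1.16 and 0.91 without wild type replicate 3. The second Cpb1 probe, ILMN_1259010, read 3149 on wild type replicate 3 and 981 to 1230 elsewhere.

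Set side by side, 7 of the 10 genes read at least 10-fold higher on wild type replicate 3 than on both other wild type arrays, which 0.121% of all probes did. Knockout replicate 3 was at least 2-fold over the highest of the 4 remaining arrays for 5 genes (Amy2a5, Try4, Cela2a, Cpa1 and Cpb1), against 0.0618% of all probes, lay within 2-fold above them for Clps and Pnliprp1, and was not above them for Rnase1, Zg16 and Cela1. Both shares stand beside counts that the choice of members had in view and support nothing. The 2 arrays did not keep a fixed ratio. Taken over the median of the 4 remaining arrays, the excess on knockout replicate 3 came to 32.9% of that on wild type replicate 3 for Amy2a5, 8.91% for Cela2a, 8.25% for Pnliprp1, 3.92% for Try4, 1.34% for Cpa1 and 0.817% for Cpb1. It was 60.5% for Clps, which stood 1.15-fold and 1.09-fold over that median on the 2 arrays, and below 0 for Cela1 (-0.773%), Rnase1 (-6.01%) and Zg16 (-10.6%). It differed between probes of 1 gene too, at 3.23% and 0.175% on the dimmer Amy2a5 probes.

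**Figure D3:**
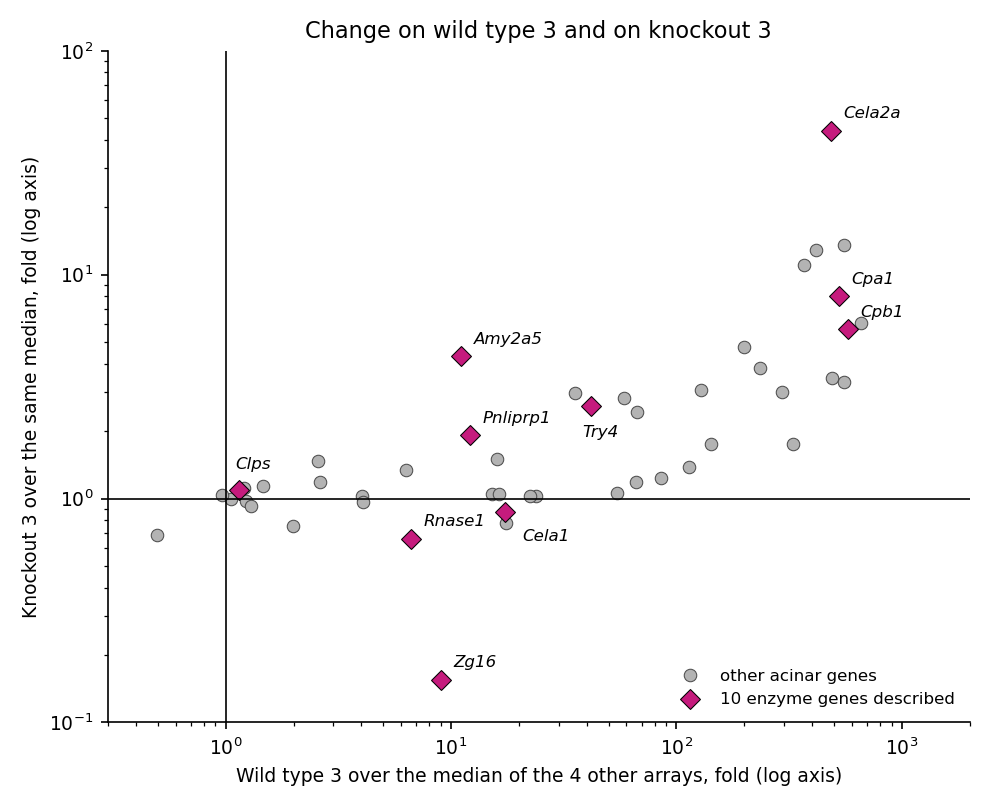
Fold of wild type replicate 3 (x axis) and of knockout replicate 3 (y axis) over the median of the 4 remaining arrays, both on log scales, 1 point per gene, for the 10 genes (diamonds) and the other acinar genes (grey circles). The black lines mark no change. Cela2a, Cpa1 and Cpb1 lie to the upper right, whereas Zg16 lies below the horizontal line at 0.155.

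The brightest probe of each array bounds these folds. On wild type replicate 3, 8 of the 10 genes read at least 80% of the brightest probe of that array, from 82.8% for Zg16 to 95.6% for Cela2a. On the other arrays 1 gene did, Clps. The fold of 1.11 of Clps on wild type replicate 3 therefore comes from a gene near that bound on every array, and that of Cpa1 from a gene near background on 4 of them.

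**Figure D4:**
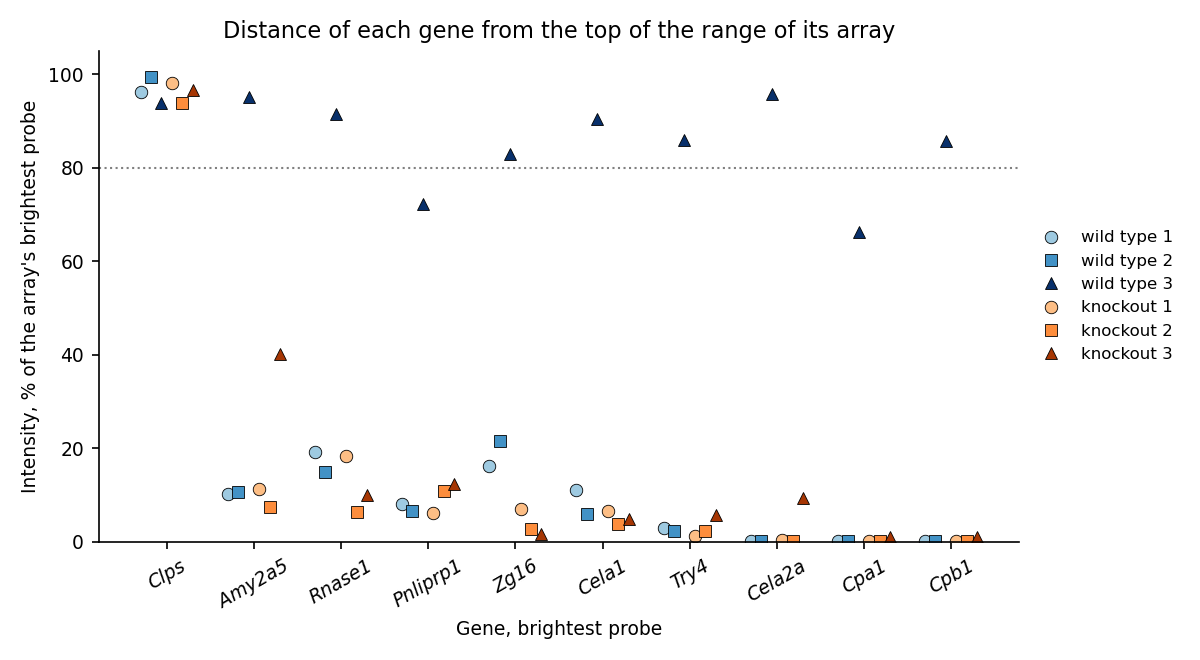
Intensity of each of the 10 genes as a percentage of the brightest probe on the same array (y axis, linear), 1 point per array. The dotted line marks 80%. Clps lies between 93.9% and 99.4% on all 6 arrays, and Amy2a5 reaches 40.2% on knockout replicate 3.

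Compared between genotypes, none of the 14 member probes that passed the filter was called by limma (Benjamini-Hochberg adjusted p = 0.994 for Zg16, and no lower for any other member). The Amy2a5 probe ILMN_2933478 passed only through wild type replicate 3, at 801 to 961 on the other arrays. Of all 22640 probes tested 2 were called (0.00883%). Lasp1 itself was not among them, although its brightest probe had a log2 difference of -1.30 (SE 0.21). The lack of a call here therefore does not show that a gene was unchanged. Without adjustment 392 probes had a p under 0.05, with Zg16 as the only member among them. Of the 10 genes 9 had a lower mean log2 level in knockout mucosa, at a median of -1.59 where all tested probes had 0.10. Without wild type replicate 3 there were 3 lower and 7 higher, at a median of 0.28 against -0.0039 over all probes. Without both replicates numbered 3 there were 5 of each, at a median of -0.04. The samples are bulk tissue, in which fewer cells of a type and less RNA per cell cannot be told apart.

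The titles also number the arrays, and both genotypes occur among those numbered 1 to 3 and those numbered 4 to 6. What this number means is not given in the sources used here. Within the arrays numbered 1 to 3 (wild type replicates 1 and 2 and knockout replicate 1) the log2 differences were 0.09 for Amy2a5, 0.09 for Rnase1, -1.43 for Zg16, -0.31 for Cela1, -1.06 for Try4, 0.88 for Cela2a, 0.28 for Cpa1 and 0.26 for Cpb1. Within those numbered 4 to 6, where wild type replicate 3 is the only wild type array, they were -2.59, -3.64, -5.45, -4.50, -4.67, -6.17, -7.50 and -7.97 in the same order. Each of these rests on 1 array of a genotype and has no test.

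Other genes of the acinar program, from a list that leaves the members out, were read next. Of 45 named genes 38 had a probe and 35 passed the filter. The filter uses the mean over all 6 arrays, so some genes passed only through wild type replicate 3. Serpini2, for instance, read 43397 there and 745 to 846 elsewhere. The counts and the median below are partly set by this. None of the 35 was called by limma in either direction, and none had an unadjusted p under 0.05. In knockout mucosa 32 were lower and 3 higher, at a median of -1.58 that became 0.12 without wild type replicate 3. With no filter the median over all 38 was -1.52. On wild type replicate 3, 25 of the 38 were at least 10-fold over both other wild type arrays, which 0.121% of all probes were. On that array 36 of the 38 were at their highest, some by little. Aqp8, at background, read 1204 there and at most 1188 elsewhere. The share of all probes highest there was not taken, and 3 of 6 salivary genes, all at background, were highest there too. Nothing is read from the 36. The list overlaps the members in kind but shares no gene with them.

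The enzymes and secretory proteins brightest on that array are given beside the members they most resemble. Pla2g1b, the pancreatic phospholipase A2, was bright everywhere like Clps, at 533888, 576175 and 677045 in wild type and 542052, 624107 and 620620 in knockout mucosa. The trypsinogens Try10, Gm5409 and Gm5771 resembled Try4: Try10 read 21216, 15203 and 634638, and 7925, 20435 and 52923. Reg1, a secreted lectin of acinar cells, resembled Cpa1, and Cela3b, an elastase, resembled Cpa1 and Cpb1. Reg1 read 1548, 1471 and 633302, and 1995, 1895 and 19011. Cela3b read 886, 899 and 626235, and 1050, 999 and 5786. Cel, the bile salt-stimulated lipase, and Sycn, a zymogen granule protein, lay between, at 2637 to 3680 and 4508 to 4802 on wild type replicates 1 and 2 and at 626381 and 621376 on wild type replicate 3.

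On knockout replicate 3, 13 of the 38 were at least 2-fold over the 4 remaining arrays, all of them among the 25. The other 12 of these 25 included 5 that were not above the 4 arrays at all. Over all 38, wild type replicate 3 stood a median of 27.4-fold over the median of the 5 other arrays. Over the 25, which were taken for their height on that array, the excess on knockout replicate 3 was a median of 0.531% of that on wild type replicate 3 (-1.35% to 5.69%). Among the members, Clps, Amy2a5, Cela2a and Pnliprp1 lay above this range, Try4, Cela1, Cpa1 and Cpb1 within it, and Rnase1 and Zg16 below it.

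**Figure D5:**
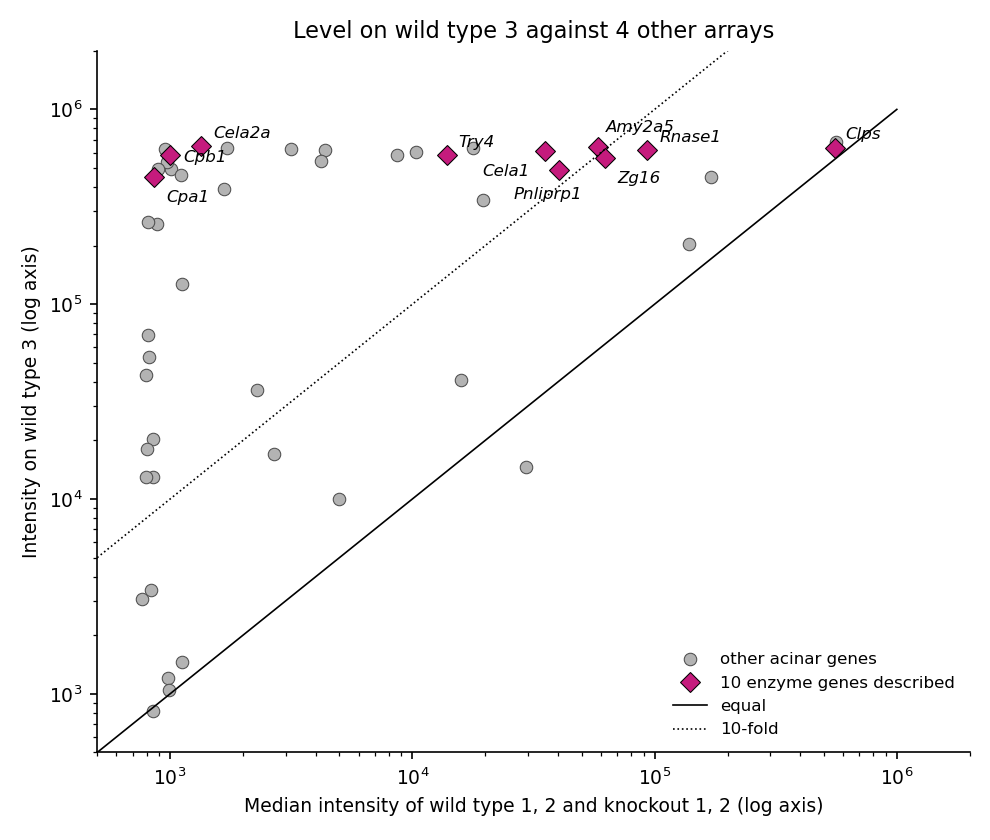
Intensity on wild type replicate 3 (y axis) against the median of wild type replicates 1 and 2 and knockout replicates 1 and 2 (x axis), both on log scales, for the 10 genes (diamonds) and the other acinar genes (grey circles). The solid line marks equal levels and the dotted line a 10-fold difference. Clps, Rnase1 and Zg16 are the members below the dotted line, and Clps lies at the top right, near the line of equality.

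The transcription factors behind the program were read on the same arrays. Ptf1a read 2581, 3538 and 17007 in wild type and 2762, 2623 and 3602 in knockout mucosa, and Rbpjl, its partner in PTF1, 2805, 2254 and 36467, and 2013, 2293 and 3418. Both were highest on wild type replicate 3 and close to the other arrays on knockout replicate 3. Bhlha15, a factor of secretory cells that chief cells also express, read 20952, 17029 and 40856, and 14419, 14841 and 23420. Nr5a2 was above background on wild type replicate 3 alone, at 3397 against 786 to 896. These 4 genes were picked from the list for their role, after their values were seen.

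Markers of neighbouring tissues were set beside these results. The summed intensity of the 38 acinar genes ran from 1014040 to 9921830 on the wild type arrays and from 931536 to 1270360 on the knockout arrays, and 3 of the 38 were above background nowhere. A few bright probes carried this sum where it was low. On wild type replicate 1, Pla2g1b alone made up 533888 of the 1014040. Of 10 measured islet genes 1, the insulin gene Ins2, was at least 10-fold over both other wild type arrays on wild type replicate 3 (8941, at most 863 elsewhere), and 3 were above background nowhere, with sums of 14466 to 24602 in wild type and 15326 to 18354 in knockout mucosa. The 6 duct genes were each lowest on wild type replicate 3, with sums of 133969 to 265860 and 222193 to 319243. All 6 measured salivary genes were at background on every array, with sums of 5102 to 5437 and 4936 to 5162. The part of acinar, islet and duct RNA in the levels of the 10 genes was not tested.

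Markers of the stomach's own cells were read too, and their sums are carried by probes near the top of the recorded range. Of 7 measured chief cell genes none was 10-fold higher on wild type replicate 3 and 6 were bright on all 6 arrays, with sums of 1920290 to 2162390 in wild type and 1959720 to 2231900 in knockout mucosa. Pgc, the progastricsin gene, read 499744, 527626 and 613674, and 536572, 579282 and 584305, and Cblif, the intrinsic factor gene, 318384 to 362449. The 7 parietal cell genes summed to 1205930 to 1280780 and 1201020 to 1399290, and 6 pit and neck cell genes to 1516230 to 1698690 and 1591580 to 1828930. Wild type replicate 3 was the lowest array for 1 chief cell, 4 parietal cell and 3 pit and neck cell genes. It was the highest array for 4, 1 and 0 of them. The dimmer markers named here were chosen after their values were seen and went both ways. Gkn3, of the gastrokine family, read 21824 there and 23398 to 79601 elsewhere. The water channel gene Aqp4 read 6212 against 10572 to 16049, and the mucin gene Muc6 3525 against 5873 to 8302. Bhlha15, also on the chief cell list, was highest there, at 40856 against 14419 to 23420. Of 12 measured intestinal genes 5, among them Fabp2 and Sis, were above background nowhere, with sums of 69802 to 190819 and 85489 to 313514. Squamous genes (9 measured) summed to 8792 to 354962 and 9936 to 582463, highest on knockout replicate 1 and wild type replicate 2, and 6 smooth muscle genes to 35213 to 103079 and 43940 to 233489. None of these genes was called.

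Finally, the named genes with the profile nearest to each class were sought among 11858 genes outside the members, by the Euclidean distance between log2 profiles over the 6 arrays, each centred on its own mean. Nearest to Cela2a, Cpa1 and Cpb1 were Prss2, a trypsinogen (distance 0.29), Ctrl, a chymotrypsin-like protease (0.36), and then Reg1 (0.49), Cela3b (1.06) and Ctrb1, a chymotrypsinogen (1.64). Prss2 read 853, 790 and 491634, and 1401, 929 and 12139. Nearest to the mean of the 7 bright genes were the sulfotransferase gene Chst2 (0.55), the kallikreins Klk1b11 (0.58) and Klk1b9 (0.59), Itih4 (0.65) and Ins2 (0.72). These 5 genes were near background on the 5 other arrays, so the likeness is in the relative rise on wild type replicate 3 and not in the level. The mean also blends unlike profiles. Sought for each bright gene alone, the nearest gene lay from 0.06 away for Clps (D030047H15Rik) to 2.72 for Zg16 (Klk1).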

How the data were processed

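The values used are the deposited intensities of 6 Illumina bead arrays, 1 linear value per probe and array, which the authors had scaled so that each array has a median of 1000. The sources used here name no scanner software, background step or genome build. Undoing the scale returned dim values to steps of 0.05 (tolerance 0.02 of a step). Probes were named from the platform annotation (34885 with 1 symbol, 18 with several, 10378 with none), and 34807 matched the gene table of GRCm38.p6, used for names and gene order only.

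Intensities were floored at 16, log2 transformed and fitted with the linear model and moderated test of limma 3.58.1 (R 4.3.3), knockout against wild type, two-sided, with Benjamini-Hochberg adjustment over 22640 probes whose mean log2 value exceeded 9.95 (an intensity of 991). A call is an adjusted p under 0.05. Where a gene had several probes, its brightest stands for it unless a probe is named. The fit was tested on simulated data, where it called 43 of 100 2-fold and 80 of 100 4-fold changes, with 9 false calls. Noise was drawn independently for each probe and array. An array that differs across many probes at once, like wild type replicate 3, was therefore not simulated.

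The members, lists and rules were chosen with earlier results of these data known. Named are all members, Lasp1, the 8 listed acinar genes brightest on wild type replicate 3, markers of neighbouring tissues and the 5 genes nearest in profile to each class. Genes named outside this rule were chosen after their values were seen. Upstream sequences came from a RefSeq promoter table, and motifs were searched on both strands. No label says that replicate numbers pair the samples, and the main fit used no pairing. Deviations of same-numbered samples from their group means correlated at 0.04, -0.30 and 0.53. Those of samples with unlike numbers correlated at -0.56 to 0.55, so these values cannot show whether the samples were paired. Alternatives were quantile and normexp normalization, other filters, blocks, array weights, other limits for the classes and leaving out arrays. The precision is limited by the number of arrays. Plots used matplotlib 3.10.9 and Python 3.11.15.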

Additional observations from a re-analysis of the deposited data

How the results depend on the processing

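Over all probes 2 were called. With the filter at the 75th percentile, with the replicate block (pairing by number is not stated) and without both replicates numbered 3 there were 0. With array weights there were 1816, and 0 to 3 on leaving out 1 array at a time. Array weights gave most influence to wild type replicate 2, and that fit called 1 member probe, Zg16 (limma adjusted p = 0.0171, and at least 0.399 under the other settings), and 1 other acinar gene. Each of the other settings run called 0 of both. The calls with array weights, 1 of 14 member probes and 1 of 35 other acinar genes, stand beside 1816 of 22640 probes. Nothing is read from them.

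The median of the other acinar genes was -1.58 and ranged from -2.83 to 0.12 on leaving out 1 array. It turned positive without wild type replicate 3 (0.12), without both replicates numbered 3 (0.02) and with array weights (0.18), and was -2.81 with a block for the title numbers. Of the 10 members 9 were lower in knockout mucosa, 10 after quantile normalization, and 3 with array weights or without wild type replicate 3. With every probe classed by itself 5 probes, of 4 genes, were high on wild type replicate 3, where the brightest probes gave 3 genes. The log2 difference of Clps between wild type replicate 3 and the median of the others, 0.15, was 0 with quantile normalization, with or without normexp.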

Other observations

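Glandular kallikreins, serine proteases of salivary gland and pancreas that lie outside the rule for named genes and were chosen after their values were seen, were also high on wild type replicate 3. Klk1, already counted among the 25 listed acinar genes above, read 23593, 19034 and 343039 in wild type and 19958, 16521 and 15143 in knockout mucosa. Klk1b26 read 14474, 11615 and 347459, and 12761, 10657 and 8575. Unlike Cela2a and Cpa1, both had their lowest value of the 6 arrays on knockout replicate 3. Klk1b5, Klk1b27 and Klk1b8 were likewise at least 10-fold over both other wild type arrays on wild type replicate 3. Kallikrein genes are close copies of each other, and how far these probes tell them apart is uncertain.

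Gal, which encodes the neuropeptide galanin, read 759, 838 and 119530 in wild type and 1722, 830 and 1169 in knockout mucosa. Among regenerating islet-derived genes, Reg2 read 69224 and Reg3d 55681 on wild type replicate 3, against at most 1006 and 863 on the 5 other arrays. Spink4, a protease inhibitor of goblet cells, ran the other way, at 14641 on wild type replicate 3 and 20251 to 50477 on the others. These genes were chosen after their values were seen and have no test. Reg2 and Spink4 are also on the list of other acinar genes and were counted with it above.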
